A study of Mus musculus with 58 samples.

Results

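The genes described here are the calmodulin-dependent kinase genes Camk2a, Camk2b and Camk4, the calmodulin-binding gene Nrgn, and the postsynaptic scaffold genes Dlg4, Shank1, Shank2 and Shank3. They were taken from the count table by name, and all 8 were found among its 9636 genes. At an excitatory synapse, calcium entering through glutamate receptors binds calmodulin, and calmodulin switches on CaMKII, the kinase of which Camk2a and Camk2b encode the main brain subunits. The receptors and the kinase are held in the postsynaptic density, a protein mesh built on PSD-95 (the product of Dlg4) and, one layer deeper, on the Shank proteins. Neurogranin, encoded by Nrgn, holds calmodulin in dendritic spines, and Camk4 encodes a kinase that carries the calcium signal into the nucleus.

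The RNA came from the somatosensory cortex of C57BL/6J mice, aged 2 to 4 months when the procedures began, which received 5 daily closed head injuries (5xCHI) or 5 daily sham procedures. Each procedure was followed after 30 min by an intraperitoneal injection of 20 mg/kg SB239063 (SB), an inhibitor of the stress kinase p38, or of saline vehicle, and the tissue was taken 18 to 34 days after the last procedure. The 58 libraries comprised 5xCHI + SB (11 from females, 8 from males), 5xCHI + vehicle (12 and 8), sham + SB (3 and 2) and sham + vehicle (9 and 5), and the labels name no genetic change. The mice came in 8 cohorts, F1 to F4 of females and M1 to M4 of males, and sham + SB libraries existed in 4 of these cohorts. The labels do not say what sets one cohort apart from another. The labels do not say that each library is a separate animal, so the p-values below measure the spread between libraries.

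Total counts ran from 28316280 to 49158277 per library, and the lowest count of any gene in any library was 101. Levels are in CPM, a gene's share of its library's counts, scaled by the TMM method. All 9 cortical excitatory neuron markers examined were present, and their summed level lay between 1769 and 2917 CPM. Of the 8 striatal markers, 5 were measured, and their summed level reached 1258 CPM in 1 library of 5xCHI + SB, against a median of 271 CPM in that group. Among sham + vehicle libraries from females, 2 of them, replicate 1 (cohort F2) and replicate 7 (cohort F3), stood apart from the rest over all genes. Their robust z scores were 3.69 and 5.02 on their leading components. Some of the results that they move are given with and without them. In whole tissue, fewer cells of a type and less RNA per cell cannot be told apart.

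In sham + vehicle cortex the 8 genes spanned a wide range of levels once exon length was divided out. Nrgn was the highest at 996.5 ± 328 CPM per kilobase of exon (SD, n = 14, as for the levels that follow). Camk2a came next at 453 ± 112 CPM per kilobase, and Camk2b had 94.5 ± 8.30 CPM per kilobase. Both leading genes stood clear of their neighbours in this order, with no overlap between libraries. Shank1 had 75.7 ± 13.8, Dlg4 58.4 ± 8.86, Shank3 23.8 ± 6.18, Shank2 23.3 ± 4.78 and Camk4 18.9 ± 7.75 CPM per kilobase. Camk2b overlapped with Shank1, Shank1 with Dlg4, Shank3 with Shank2 and Shank2 with Camk4, and with the longest coding transcript in place of all exons Dlg4 (122 CPM per kilobase) came before Shank1 (81.0).

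The first question was whether the p38 inhibitor changed these genes in injured mice. All 8 were higher in 5xCHI + SB than in 5xCHI + vehicle, where 52.2% of all 9636 genes were higher, and none of the 8 passed the test across all genes, as for 0% of the whole table. The fold changes were small: the median of the 8 was 0.11 on the log2 scale, against 0.0034 over all genes. Shank3 and Shank2 had an unadjusted p under 0.05 in edgeR's quasi-likelihood test, and 3.41% of genes were higher at that level. Over the whole table the same test gave 680 genes at an unadjusted p under 0.05, DESeq2 gave 705 and no call, and limma's voom with quality weights gave 1407 and 1 call, which was none of the 8.

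Shank3, the scaffold whose loss in people is a known cause of Phelan-McDermid syndrome, had a lowest, median and highest level of 163, 248 and 349.7 CPM in 5xCHI + SB, against 148, 214 and 333 CPM in 5xCHI + vehicle. The groups overlapped over most of their range. The fold change was 0.22 ± 0.07 on the log2 scale (SE, n = 19 and 20), or 1.17-fold with a 95% interval of 1.06 to 1.29 (edgeR unadjusted p = 0.00277, Benjamini-Hochberg adjusted p = 0.655). Within cohorts, the mean log2 level of Shank3 was higher in 5xCHI + SB in 8 of 8 cohorts, as for 0.841% of all genes. The differences ran from 0.08 (M1 and M4) to 0.53 in F4, which held 1 library of 5xCHI + SB and 2 of 5xCHI + vehicle. Of the alternative fits, voom gave the smallest adjusted p for Shank3, 0.123.

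The 250 bases upstream of the RefSeq start of Shank3 are shown with those of Camk2b, because Shank3 had the largest fold change with the inhibitor and Camk2b had both the smallest fold change and the smallest spread between libraries of the 8. They were read from the GRCm38.p6 promoter table, at chr15:89499358-89499607 on the plus strand and chr11:6065749-6065998 on the minus strand. Capitals mark the GC box, GGGCGG, on either strand, counting overlapping matches.
Shank3: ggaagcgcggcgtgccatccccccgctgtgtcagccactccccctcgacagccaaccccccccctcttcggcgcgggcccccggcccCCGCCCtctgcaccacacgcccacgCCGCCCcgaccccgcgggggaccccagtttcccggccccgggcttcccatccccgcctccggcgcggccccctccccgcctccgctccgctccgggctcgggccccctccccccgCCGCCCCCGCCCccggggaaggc
Camk2b: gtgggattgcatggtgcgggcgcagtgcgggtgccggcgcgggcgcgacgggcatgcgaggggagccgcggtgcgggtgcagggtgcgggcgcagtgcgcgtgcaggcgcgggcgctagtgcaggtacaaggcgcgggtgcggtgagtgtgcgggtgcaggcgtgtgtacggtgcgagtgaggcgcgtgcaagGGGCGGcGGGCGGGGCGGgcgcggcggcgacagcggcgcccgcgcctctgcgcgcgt
The Shank3 window had 82.4% G and C with 4 GC boxes, and the Camk2b window had 78.4% with 3 GC boxes. The median over all 32851 promoter windows was 52.4%, and 32.7% of them held a GC box. Neither window held a TATA box (TATAAA, in 12.4% of all windows), a cyclic AMP response element (TGACGTCA, 1.5%), a CCAAT box (CCAAT, 33.8%) or an E-box (CANNTG, 66.2%), all searched on both strands.

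Shank2, which shares its domain plan with Shank3, had 211, 282 and 396 CPM (lowest, median and highest) in 5xCHI + SB, against 170.3, 249 and 364 CPM in 5xCHI + vehicle. Its fold change was 0.13 ± 0.06 on the log2 scale (SE; edgeR unadjusted p = 0.0322, Benjamini-Hochberg adjusted p = 0.689). It was higher with SB in 7 of 8 cohorts, and 5.87% of genes were higher in as many. Shank1, the third member of the family, had 623, 826 and 1359 CPM in 5xCHI + SB, against 542, 791 and 1089.7 CPM in 5xCHI + vehicle, a fold change of 0.12 ± 0.07. Without female 5xCHI + SB replicate 10, the library with the highest Shank1, this value was 0.07. Dlg4, which encodes PSD-95, had 653, 839 and 1015 CPM in 5xCHI + SB, against 695, 773 and 896 CPM in 5xCHI + vehicle, a fold change of 0.07 ± 0.04. For Shank1 and Dlg4 the difference was positive in 6 of 8 cohorts, which 18.7% of genes matched.

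Among the kinase genes, Camk4 had 40.3, 71.3 and 111 CPM (lowest, median and highest) in 5xCHI + SB, against 35.3, 59.6 and 82.9 CPM in 5xCHI + vehicle, a fold change of 0.18 ± 0.10 on the log2 scale (SE; edgeR unadjusted p = 0.0642). It was higher in 6 of 8 cohorts. Camk2a, the alpha subunit of CaMKII, had 2953, 3783 and 4631 CPM in 5xCHI + SB, against 2569, 3479 and 4150.3 CPM in 5xCHI + vehicle, a fold change of 0.10 ± 0.06. Camk2b, the beta subunit, which binds actin, had 767, 904 and 1011 CPM in 5xCHI + SB, against 773, 852 and 1003 CPM in 5xCHI + vehicle, a fold change of 0.06 ± 0.03. The beta subunit was higher in 7 of 8 cohorts and the alpha subunit in 5, a number that 39.7% of genes reached. Nrgn had 1005, 1419 and 1824 CPM in 5xCHI + SB, against 1021, 1382 and 1868 CPM in 5xCHI + vehicle, so the ranges of the 2 groups nearly coincided, and its fold change was 0.08 ± 0.09, or 0.04 without female 5xCHI + SB replicate 8.

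**Figure D1:**
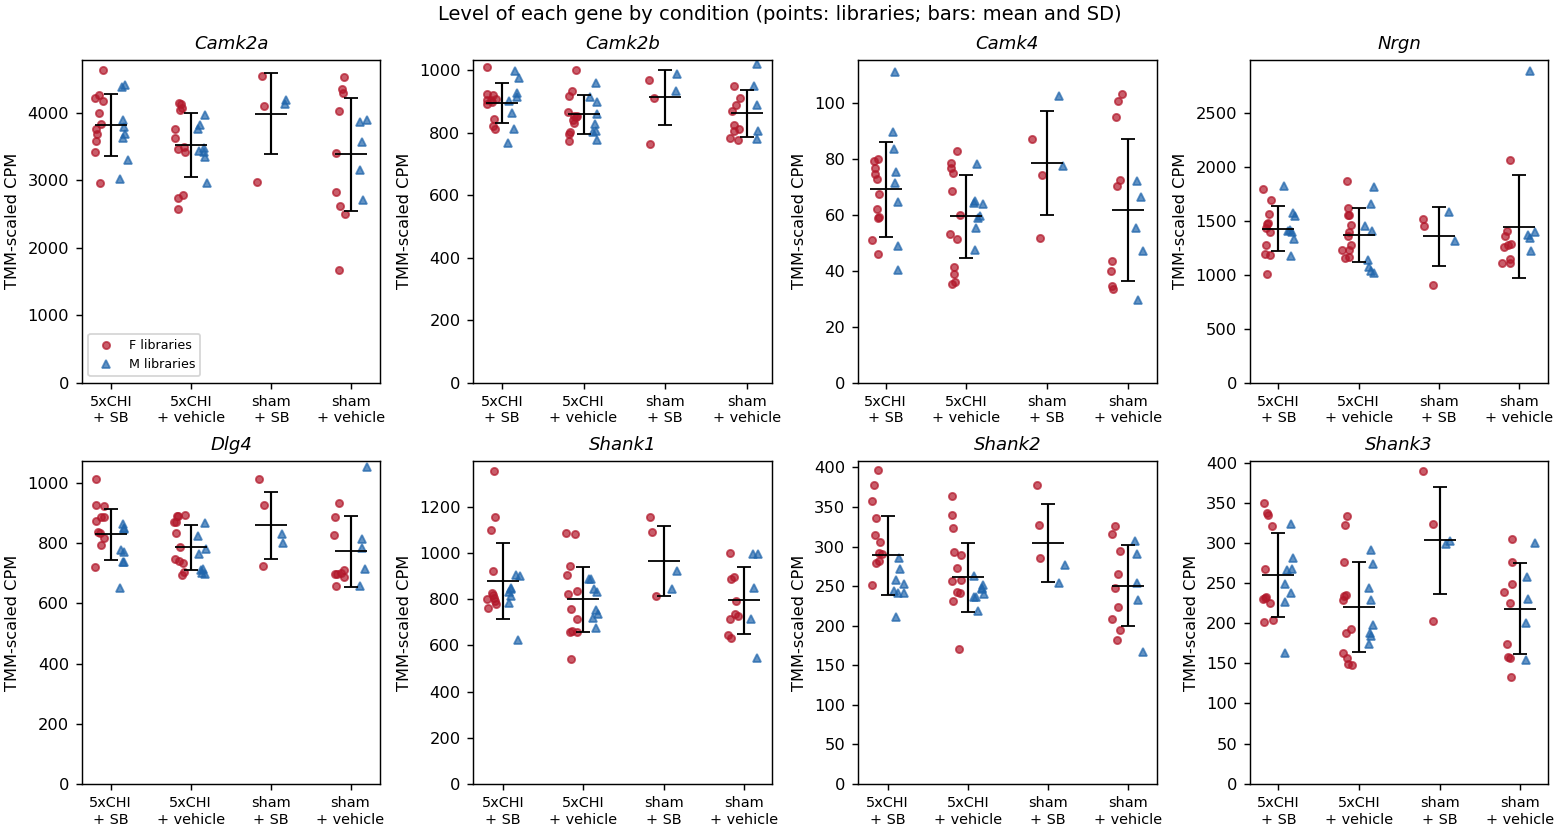
TMM-scaled CPM of each gene (y axis, starting at 0) in every library of the 4 conditions, with circles for females, triangles for males and black bars for the mean and SD. Libraries of every condition overlap for all 8 genes, and the Nrgn panel shows 1 male sham + vehicle library at 2895 CPM.

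**Figure D2:**
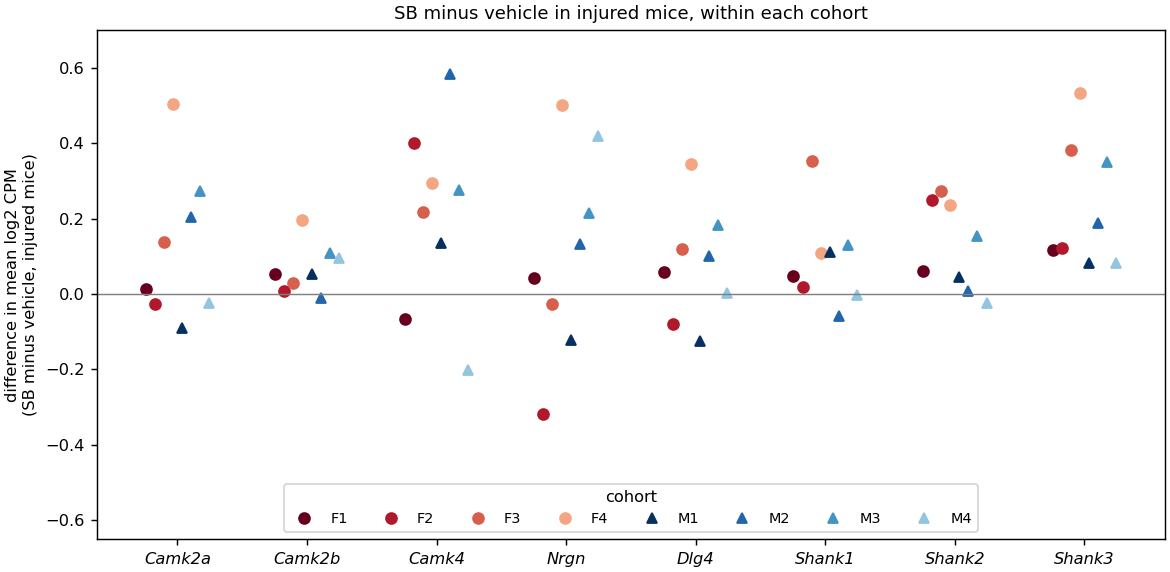
Difference in mean log2 CPM, 5xCHI + SB minus 5xCHI + vehicle, for each gene within each of the 8 cohorts (circles, females; triangles, males). Shank3 lies above 0 in all 8 cohorts, whereas Nrgn ranges from -0.32 in F2 to 0.50 in F4. Cohort F4 held 1 library of 5xCHI + SB.

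Most of the other genes listed for the postsynaptic density and its partners were higher too, where 52.2% of all genes were. Of 31 other scaffold genes measured, 29 were higher in 5xCHI + SB, with a median of 0.08 on the log2 scale, and none passed the test across all genes. Iqsec2, an Arf exchange factor of the density, had 0.15 ± 0.06 (SE). Only Nlgn3, a neuroligin (-0.05 ± 0.05), and Dlg1, the PSD-95 relative SAP97 (0.00 ± 0.04, on the negative side), were lower. Of 26 other calmodulin kinase and calmodulin-binding genes, 18 were higher, with a median of 0.03. Crtc1, a CREB coactivator, had 0.14 ± 0.05, Camkk2, the kinase that activates CaMKIV, had 0.11 ± 0.05, the calmodulin-binding peptide gene Pcp4 had -0.27 ± 0.11, and Gap43, the axonal relative of neurogranin, had -0.11 ± 0.05. Of 12 genes of glutamate receptors and their auxiliary subunits, 10 were higher, with a median of 0.05, Grin1 at 0.09 ± 0.04 and Grin2a at 0.11 ± 0.07 among them, and Gria4 and Cacng2 at -0.01 ± 0.05 each. None of the genes in these lists passed in edgeR's test, DESeq2 also called no gene of the table, and the lists hold genes picked with earlier results of these libraries known.

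Other features of the libraries moved with this comparison. All 9 oligodendrocyte markers were lower in 5xCHI + SB, by a log2 fold change of -0.41 to -0.31, each at an unadjusted p under 0.05, where 3.64% of genes were lower at that level. Their summed level ran from 2502 to 8784 CPM in 5xCHI + SB, against 5236.5 to 12494 CPM in 5xCHI + vehicle. All 5 striatal markers measured were higher, with a median of 0.30, and their summed level ran from 213 to 1258 CPM in 5xCHI + SB, against 202 to 560.1 CPM in 5xCHI + vehicle. Of 9 excitatory neuron markers, 6 were higher, with a median of 0.03, and the summed level ran from 1952 to 2549.5 CPM in 5xCHI + SB, against 2034 to 2596 CPM in 5xCHI + vehicle. The part of these features in the values of the 8 genes was not tested.

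Transcript length was also examined. A length index, the mean log2 CPM of the 3183 genes with the longest exons (6569 bases or more) minus that of the 3183 with the shortest (3828 bases or fewer), averaged 0.04 ± 0.09 in 5xCHI + SB, -0.01 ± 0.13 in 5xCHI + vehicle, 0.04 ± 0.04 in sham + SB and -0.05 ± 0.19 in sham + vehicle (SD, n = 19, 20, 5 and 14). The index was not tested between conditions. Within cohorts its difference, 5xCHI + SB minus 5xCHI + vehicle, was negative in F1 (-0.03), F4 (-0.05) and M4 (-0.11). It was positive in the other cohorts, up to 0.23 in F2. With SB after injury, 68.0% of the longest genes were higher, with a median of 0.03, and 34.8% of the shortest. The exons of Camk2a, Camk2b, Dlg4, Shank1, Shank2 and Shank3 placed them among the longest genes, while Camk4 (3259 bases) and Nrgn (1453 bases) were among the shortest. After group and cohort were removed, the index was related to the log2 level of Camk4 (Pearson r = 0.75, Spearman rho = 0.72) and Shank2 (r = 0.65, rho = 0.58) and inversely to that of Nrgn (r = -0.71, rho = -0.64) over the 58 libraries, each at a permutation p of 1e-05, the smallest that 100000 draws can give, and an adjusted p of 2.67e-05 over 8 relations. Camk2a (r = 0.49, rho = 0.43), Shank1 (r = 0.39, rho = 0.47) and Shank3 (r = 0.38, rho = 0.39) also passed, at adjusted permutation p of 0.00024, 0.00374 and 0.005. Camk2b (r = -0.24, rho = -0.22, adjusted permutation p = 0.0807) and Dlg4 (r = -0.13, rho = -0.14, adjusted permutation p = 0.315) did not. Within sexes, r was 0.69 in males and 0.77 in females for Camk4, 0.66 and 0.65 for Shank2, -0.65 and -0.77 for Nrgn, 0.18 and 0.605 for Camk2a, 0.68 and 0.24 for Shank1, and 0.42 and 0.36 for Shank3. For each gene, r was also taken without the 2 libraries farthest from the median residual level of that gene. It was then 0.70 for Camk4, 0.60 for Shank2, -0.62 for Nrgn, 0.37 for Camk2a, 0.42 for Shank1 and 0.30 for Shank3. The relations without the libraries of most extreme index were not tested. The draws permuted residuals freely over the 58 libraries, while the fit of group and cohort left 44 residual degrees of freedom. The permutation p-values of these relations may therefore be too small. The part of transcript length in the group differences was not tested.

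The sexes were then compared within the same fit. In males, 8 of 8 genes were higher in 5xCHI + SB than in 5xCHI + vehicle, where 51.9% of all genes were, and in females 7 of 8 were, where 52.7% of all genes were. Shank3 had a log2 fold change of 0.18 ± 0.11 in males and 0.27 ± 0.09 in females, Shank2 had 0.05 ± 0.09 in males and 0.21 ± 0.07 in females, and Shank1 had 0.05 ± 0.11 in males and 0.18 ± 0.09 in females (SE). The female values of all 3 Shank genes had an unadjusted p under 0.05, as did 3.3% of genes in that direction, and an adjusted p of 0.693 (edgeR, Benjamini-Hochberg). The difference between the sexes did not pass for any of the 8, and for Shank3 it was -0.09 with a 95% interval of -0.38 to 0.19, male minus female. Without female 5xCHI + SB replicate 10, the female Shank1 value was 0.10. With single libraries left out, the male values ran from 0.0088 for Shank1 and 0.015 for Shank2, both without male 5xCHI + SB replicate 5, to 0.10 and 0.09, both without replicate 6 of that group. The striatal markers were higher with SB in 5 of 5 in males, with a median log2 fold change of 0.56, and in 3 of 5 in females, with a median of 0.02. All 9 oligodendrocyte markers were lower in both sexes, with medians of -0.39 in males and -0.34 in females, and the part of either list in the values by sex was not tested.

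The inhibitor was also given to sham mice, in a group of only 5 libraries. Of the 8 genes, 7 were higher in sham + SB than in sham + vehicle, against 47.1% of all genes, and none passed the test (0% of genes called, 676 at an unadjusted p under 0.05 in edgeR, 703 in DESeq2 and 753 in voom). The median of the 8 was 0.18 on the log2 scale. Without the 2 sham + vehicle libraries that stood apart it was 0.12, and 7 were again higher. Shank3 had 202, 323 and 389 CPM in sham + SB females and 303 and 299 CPM in sham + SB males, against 133, 227 and 304 CPM (lowest, median and highest) in sham + vehicle. Of the 5 sham + SB values, 4 were at 299 CPM or more, and the groups overlapped. The fold change was 0.25 ± 0.12 on the log2 scale (edgeR unadjusted p = 0.0487, adjusted p = 0.677), and 3.54% of genes were higher at that unadjusted level. Shank3 was higher in all 4 cohorts that held both groups, as were 4.61% of genes. The difference was 0.29 in F1, with 2 libraries of each group. In F2, M1 and M2 it was 0.36, 0.96 and 0.02, with 1 library of each group. The sham + vehicle library of F2 was replicate 1, which stood apart, and that of M1 was male replicate 4. The fold change of Shank3 was 0.14 without male sham + vehicle replicate 4.

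Shank2 had 285, 328 and 378 CPM in sham + SB females and 253 and 277 CPM in sham + SB males, against 167, 251 and 326 CPM in sham + vehicle, a fold change of 0.23 ± 0.10 (edgeR unadjusted p = 0.0254). Camk4 had 51.6, 74.1 and 87.2 CPM in sham + SB females and 102 and 77.3 CPM in sham + SB males, against 29.4, 60.9 and 103 CPM in sham + vehicle, a fold change of 0.35 ± 0.17 (edgeR unadjusted p = 0.0421). Both groups of each gene overlapped, and in each case the lowest library was a sham + vehicle one. Camk2a had 2966, 4099 and 4548 CPM in sham + SB females and 4129 and 4183 CPM in sham + SB males, against 1666, 3479 and 4525 CPM in sham + vehicle, a fold change of 0.20 ± 0.11. Shank1, Dlg4 and Camk2b had fold changes of 0.15 ± 0.12, 0.08 ± 0.08 and 0.07 ± 0.06. Without male sham + vehicle replicate 4 these were 0.05, 0.02 and 0.03, and Camk4 and Camk2a had 0.24 and 0.14. The Shank2 value was 0.15 without either that library or male sham + SB replicate 2. Within cohorts the Camk4 difference was -0.28 in F1, with 2 libraries of each group. In F2, M1 and M2, with 1 library of each group, it was 0.58, 1.39 and 0.62. Nrgn alone had a negative value in the whole fit, -0.18 ± 0.16. It had 906, 1456 and 1523 CPM in sham + SB females and 1316 and 1585 CPM in sham + SB males, against 1111, 1318 and 2895 CPM in sham + vehicle. In cohorts F1, F2, M1 and M2 alone, which hold all 4 conditions, the Nrgn value was 0.04, on the positive side. Within these cohorts Nrgn was higher in sham + SB in 3 of 4, a number that 33.5% of genes reached, and the F2 difference was -0.59. With single libraries left out of the whole fit, the Nrgn value ran from -0.27 without male sham + vehicle replicate 3 to -0.06 without replicate 2 of that group. All 9 oligodendrocyte markers were lower in sham + SB as well, with a median of -0.16, and 66.7% of the longest genes were higher, against 24.8% of the shortest. The part of these features in the sham values was not tested.

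The test of whether the inhibitor acted differently after injury than after sham passed for none of the 8 genes, nor for any gene of the table (0% called, 133 at an unadjusted p under 0.05 in edgeR, 144 in DESeq2, 633 in voom). The difference of the 2 fold changes was -0.02 for Shank3, with a 95% interval of -0.31 to 0.26, and 0.25 for Nrgn, with an interval of -0.13 to 0.63, on the log2 scale.

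**Figure D3:**
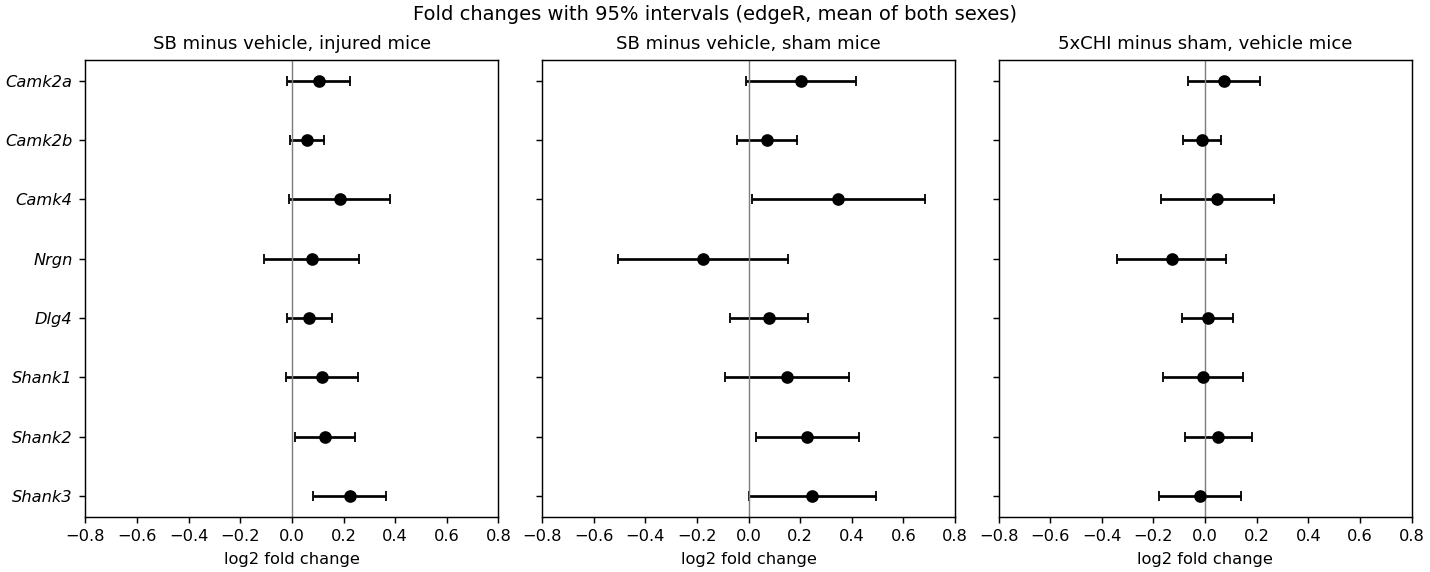
Log2 fold changes (x axis) of the 8 genes with 95% intervals from edgeR, for SB minus vehicle in injured mice, SB minus vehicle in sham mice, and 5xCHI minus sham in vehicle mice. With SB the intervals of Shank2 and Shank3 lie above 0 in injured mice, as do those of Camk4, Shank2 and Shank3 in sham mice, and with injury every interval includes 0.

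The second question was whether repeated injury itself left these genes changed in vehicle-treated mice. Of the 8 genes, 4 were higher in 5xCHI + vehicle than in sham + vehicle and 4 lower, where 49.4% of all genes were higher, and the median of the 8 was 0.00 on the log2 scale, as it was for all genes. None of the 8 passed (0% of genes called, 169 at an unadjusted p under 0.05 in edgeR, 182 in DESeq2 and 292 in voom). By sex, 2 of 8 were higher in males, against 50.2% of all genes, and 7 of 8 in females, against 45.0%. The number in females was 4 without the 2 female sham + vehicle libraries that stood apart. The difference, male minus female, was positive for 1 of 8, against 51.8% of all genes. None of the 8 passed these tests by sex in edgeR, as for 0% of all genes. Camk2a had 2569, 3479 and 4150.3 CPM (lowest, median and highest) in 5xCHI + vehicle, against 1666, 3479 and 4525 CPM in sham + vehicle, so the sham libraries were the more spread of the 2 groups. Its fold change was 0.07 ± 0.07, and without the 2 sham libraries that stood apart it was 0.00, on the negative side. Camk2b had -0.01 ± 0.04, Dlg4 0.01 ± 0.05, Shank1 -0.01 ± 0.08, Shank2 0.05 ± 0.06, Shank3 -0.02 ± 0.08 and Camk4 0.05 ± 0.11. The 95% intervals of the fold were narrowest for Camk2b, 0.94 to 1.04, and for Camk2a they were 0.96 to 1.16. Within cohorts the difference was positive in 4 of 8 cohorts for Camk2a, Dlg4, Shank1, Shank3 and Camk4 and in 5 for Camk2b and Shank2, numbers that 68.9% and 35.3% of genes reached. Without those 2 sham libraries, Dlg4 was at -0.01 and Camk4 at -0.04.

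Nrgn showed the largest of these differences, -0.13 ± 0.10 (SE, n = 20 and 14), and it rested on 1 library. Nrgn had 1021, 1382 and 1868 CPM in 5xCHI + vehicle, against 1111, 1318 and 2895 CPM in sham + vehicle. Within cohorts it was higher in 5xCHI + vehicle in 6 of 8, as in 10.2% of genes, while the difference was -0.90 on the log2 scale in M3 and -0.35 in M4. The highest value came from male sham + vehicle replicate 2 in cohort M3, and the other 4 male sham + vehicle libraries had 1346, 1226, 1369 and 1400.0 CPM. Without that library the fold change was 0.01. In males alone it was -0.34 ± 0.17 (edgeR unadjusted p = 0.0477, adjusted p = 0.846), where 2 of the 8 genes and 50.2% of all genes were higher and 2.13% of genes were lower at that unadjusted level, and -0.05 without that library. In females it was 0.08 ± 0.13, from 0.02 without female 5xCHI + vehicle replicate 9 to 0.18 without female sham + vehicle replicate 7, 1 of the 2 libraries that stood apart. The difference between the sexes, male minus female, was -0.42 ± 0.21 (edgeR unadjusted p = 0.052, adjusted p = 0.786), or -0.13 without that library.

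Camk4 ran the other way between the sexes, at 0.26 ± 0.17 in males and -0.17 ± 0.13 in females, a difference of 0.43 ± 0.22 (SE; edgeR unadjusted p = 0.0569, adjusted p = 0.786). Without male sham + vehicle replicate 4 that difference was 0.26 and the male value 0.09, and without female sham + vehicle replicate 5 the female value was -0.07. The oligodendrocyte markers also ran opposite ways between the sexes: 9 of 9 were higher in 5xCHI + vehicle in males, with a median of 0.28, and 0 of 9 in females, with a median of -0.14. Their difference, male minus female, was positive in 9 of 9, with a median of 0.42, and their part in the values of Camk4 and Nrgn by sex was not tested. Of the other lists, 23 of 31 scaffold genes, 14 of 26 calmodulin genes and 10 of 12 genes of the receptor list were higher in 5xCHI + vehicle, against 49.4% of all genes. The medians were 0.02, 0.01 and 0.05, with no call in these lists. Named by smallest p, these were led by Dlg2, the PSD-93 gene (0.09 ± 0.08), Cnksr2 (0.10 ± 0.09), the activity-linked scaffold Homer1 (-0.14 ± 0.09) and Baiap2, which encodes IRSp53 (-0.05 ± 0.05). In the calmodulin list these were the CaMKII delta gene Camk2d (0.08 ± 0.07), the calmodulin-stimulated cyclase gene Adcy1 (0.09 ± 0.08), Cabp1 (-0.11 ± 0.07) and Camk1g (-0.07 ± 0.08). In the receptor list they were Gria1 (0.09 ± 0.05), Cacng2 (-0.09 ± 0.06) and Grin1 (-0.01 ± 0.05). Over both sexes the oligodendrocyte markers were higher in 9 of 9, with a median of 0.06, and 70.7% of the longest genes were higher, against 26.9% of the shortest.

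Injured mice given the inhibitor were also set against sham mice given vehicle. In this comparison 7 of 8 genes were higher, against 50.2% of all genes, and none passed (0% called, 1211 at an unadjusted p under 0.05 in edgeR, 1271 in DESeq2 and 443 in voom). Camk2a had 0.18 ± 0.07, Shank2 0.18 ± 0.07, Shank3 0.20 ± 0.08 and Camk4 0.23 ± 0.11, each at an unadjusted p under 0.05 (5.64% of genes were higher at that level) and an adjusted p of 0.351 for the first 3 and 0.382 for Camk4 (edgeR, Benjamini-Hochberg). In voom none of the 8 had an unadjusted p under 0.05. The median of the 8 in edgeR was 0.142. Without the 2 sham + vehicle libraries that stood apart it was 0.095, and 8 of 8 were higher. Without male sham + vehicle replicate 4, Shank2 had 0.12, Shank3 0.12 and Camk4 0.15. Nrgn had -0.05 ± 0.10, and 0.09 without male sham + vehicle replicate 2. Of the 9 oligodendrocyte markers, 0 were higher in 5xCHI + SB, 7 had an unadjusted p under 0.05 and the median was -0.29, while 75.0% of the longest genes were higher, against 22.1% of the shortest. The part of these features in the values of the 8 genes was not tested here either. The comparisons with sham + vehicle share those 14 libraries.

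The ratio of the 2 CaMKII genes does not depend on the scaling of a library. Camk2a counts were 4.28 ± 0.555 times those of Camk2b in 5xCHI + SB, 4.10 ± 0.529 times in 5xCHI + vehicle, 4.34 ± 0.303 times in sham + SB and 3.91 ± 0.860 times in sham + vehicle (SD). Within cohorts the ratio was 1.04-fold higher in 5xCHI + SB than in 5xCHI + vehicle (two-sided permutation p = 0.341) and 1.07-fold higher in 5xCHI + vehicle than in sham + vehicle (p = 0.273), and the adjusted p was 0.341 for both. Neither difference exceeded the spread between libraries.

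Most of the 8 genes did differ between cohorts of females. In females, 7 of the 8 genes differed between cohorts F1 to F4 at an adjusted p under 0.05, as did 50% of all genes, with condition in the same fit. Shank3 had the smallest adjusted p of the 8 (1.71e-07 by edgeR's quasi-likelihood test with Benjamini-Hochberg adjustment), with 323 ± 33.5 CPM in F1, 191 ± 32.7 in F2, 225 ± 46.2 in F3 and 171 ± 36.5 in F4 (SD, n = 10, 6, 14 and 5). Every F1 library lay between 276 and 389 CPM, above every F2 library (148 to 235) and every F4 library (133 to 231). Camk2a had 4194 ± 166 CPM in F1, 2922 ± 714 in F2, 3763 ± 525 in F3 and 2879 ± 512 in F4, and again all F1 libraries lay above those of F2 and F4. Camk4 had 79.2 ± 12.4, 50.4 ± 12.6, 67.0 ± 17.7 and 39.5 ± 5.10 CPM in F1 to F4, and Shank2 had 345 ± 23.2, 244 ± 54.4, 278 ± 47.5 and 242 ± 25.8 CPM.

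The same order, F1 highest and F4 lowest, held for the means of Shank1 (1039.7 ± 103 in F1 and 727 ± 60.3 CPM in F4) and Dlg4 (914 ± 42.8 and 736 ± 86.2 CPM). Camk2b spanned less, from 806 ± 23.9 CPM in F2 to 899 ± 62.5 CPM in F3, at an adjusted p of 0.0107 in edgeR, and 0.0728 with upper quartile scaling. Nrgn was the one gene of the 8 that did not pass, at an adjusted p of 0.819 and means of 1401 ± 101, 1307 ± 347, 1417 ± 267 and 1322 ± 290.2 CPM in F1 to F4. F1 and F3 are the largest cohorts, and between them Shank3 (0.49 ± 0.09 on the log2 scale), Shank1 (0.35 ± 0.09), Shank2 (0.28 ± 0.08) and Dlg4 (0.17 ± 0.06) were higher in F1 at an adjusted p under 0.05 in edgeR, where 11.9% of genes were called and 5.68% were called higher. Camk2a had 0.15 ± 0.08, Camk4 0.24 ± 0.13, Nrgn 0.01 ± 0.12 and Camk2b -0.02 ± 0.04.

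In males, 1 of the 8 genes passed between cohorts, as did 3.83% of all genes. Camk4 had 61.0 ± 16.7 CPM in M1, 82.0 ± 20.7 in M2, 71.5 ± 12.7 in M3 and 47.7 ± 5.32 in M4 (SD, n = 6, 6, 6 and 5; edgeR adjusted p = 0.0418). This call was lost when any 1 of 14 male libraries was left out, at an adjusted p of up to 0.169. Shank3 had 253 ± 54.4, 285 ± 28.8, 222 ± 30.6 and 194 ± 28.7 CPM in M1 to M4 (edgeR adjusted p = 0.0648, and 0.0339 in DESeq2). Between M2 and M4 alone, Camk4 (0.68 ± 0.19 on the log2 scale) and Shank3 (0.52 ± 0.14) were higher in M2 at an adjusted p under 0.05 in edgeR, where 13% of genes were called and 6.68% were called higher. Of the other lists, 24 of 31 scaffold genes, 16 of 26 calmodulin genes and 8 of 12 genes of the receptor list differed between female cohorts, against the 50% of all genes given above, with Sipa1l1, Camk1d and Grin2b at the smallest p of each list. Between male cohorts 0, 2 (Camkk2 and Camk1d) and 0 of them differed, against 3.83% of all genes. Of 9 oligodendrocyte markers, 8 differed between female cohorts, and the length index averaged 0.07, -0.09, 0.05 and -0.13 in F1 to F4. Their part in these values was not tested.

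**Figure D4:**
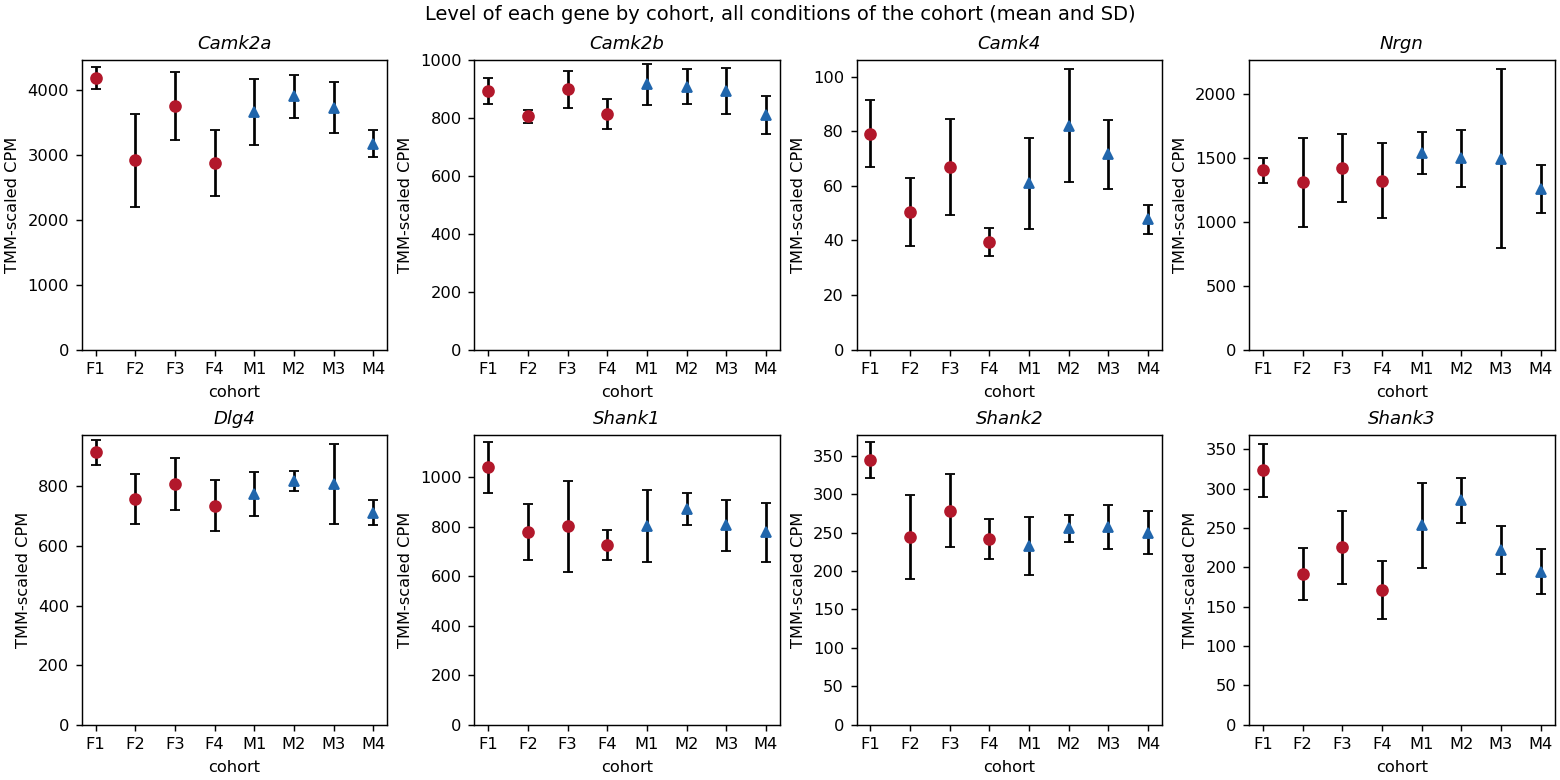
TMM-scaled CPM (y axis, starting at 0) of each gene in the 8 cohorts, as the mean and SD over all libraries of a cohort, with circles for females and triangles for males. Shank3, Camk2a, Camk4 and Shank2 are highest in F1 among female cohorts, and Nrgn means lie between 1254 and 1536 CPM in every cohort.

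With group and cohort removed, the log2 levels of many genes still varied together from library to library, and the first component held 26.0% of the residual variance of the table. The residual SD of log2 level was 0.10 for Camk2b, lower than for most genes (percentile 5.71 of the table), and 0.32 for Camk4 (percentile 97.0) and 0.29 for Nrgn (percentile 95.3). Of the 28 pairs, 25 had a positive Pearson r, the median r was 0.43, and 18 pairs had an adjusted permutation p under 0.05 (17 by Spearman rho). Of all pairs of the table's genes, 49.6% had a positive r, 11.7% had an r at or above the median of the 8 genes, and 36.3% had an r at least as far from 0 as the smallest among those 18 pairs (0.332). The 3 Shank genes were the closest set: Shank1 with Shank3 had r = 0.84 and rho = 0.77, Shank2 with Shank3 had r = 0.76 and rho = 0.67, and Shank1 with Shank2 had r = 0.75 and rho = 0.72, each at a permutation p of 1e-05, the smallest possible, and an adjusted p of 4.67e-05 over 28 pairs. Of all gene pairs, 0.721% had an r as high as the lowest of these 3. For Shank1 with Shank3, r was 0.82 in females and 0.86 in males, and 0.80 without the 2 libraries farthest from the median of Shank1.

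Camk2a varied with Camk4 (r = 0.705, rho = 0.63), and Camk2b with Dlg4 (r = 0.70, rho = 0.69), both at an adjusted permutation p of 4.67e-05. No relation between the 2 CaMKII genes passed (r = 0.10, rho = 0.15, adjusted permutation p = 0.548), and r was -0.02 in females and 0.33 in males. Nrgn varied with Dlg4 (r = 0.57, rho = 0.56) and Camk2b (r = 0.48, rho = 0.47), and inversely with Camk4 (r = -0.345, rho = -0.31, adjusted permutation p = 0.0127), where r was -0.51 in females and -0.09 in males. All pairs share their libraries and the scaling of each library. Their permutation p-values may be too small, as residuals were permuted over 58 libraries with 44 residual degrees of freedom.

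**Figure D5:**
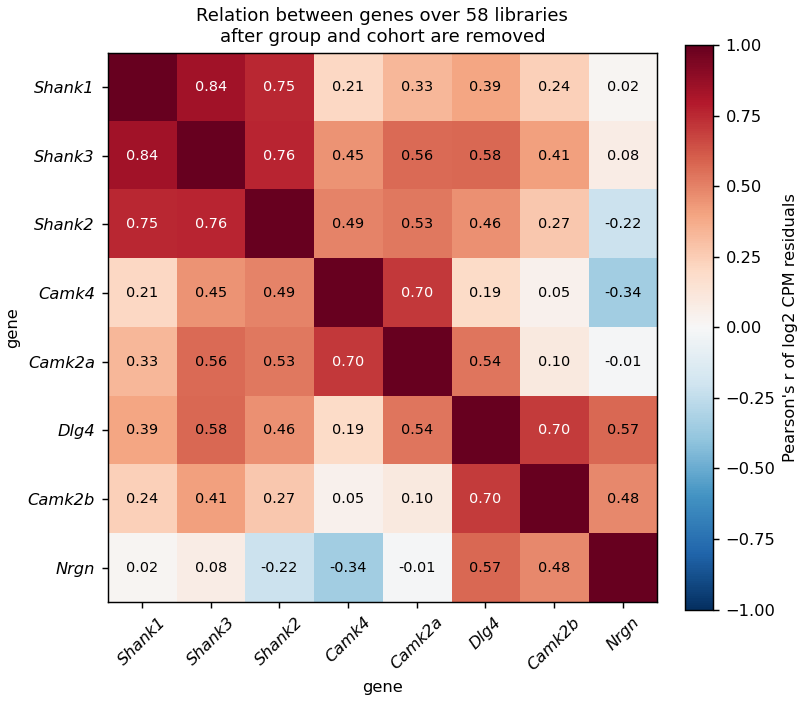
Pearson's r (color and number) between the log2 CPM residuals of each pair of genes (both axes) over 58 libraries, after group and cohort were removed. The 3 Shank genes form the block of highest values, 0.75 to 0.84, and the 3 values below 0 are all in the Nrgn row.

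The genes outside the 8 whose residuals were most like each member are given as a description over the same 58 libraries. For Camk2a they were Sipa1l1 (r = 0.92), Stum and Enc1, and for Camk4 they were Ppp1r9a (r = 0.89), Sort1 and Atrn. Sipa1l1 encodes SPAR and Ppp1r9a encodes neurabin, both spine proteins that bind actin. Genes most like Shank2 included Trio (r = 0.86) and Ppp1r12b, Shank3 was most like Crtc1 (r = 0.90), Pitpnm2 and Snph, and Shank1 like Pitpnm2 (r = 0.84), Mllt6 and Cacna1a, so Pitpnm2 stood in the lists of both Shank1 and Shank3. Dlg4 was most like Fbxl16 (r = 0.88), Pgbd5 and Pip5k1c, Camk2b like Eef1a2 (r = 0.84), Ap2a1 and Pacsin1, and Nrgn like Cdk5r2 (r = 0.90), Mgat4b and Epop. The 3 genes most like Nrgn had 2314 to 2799 bases of exon, and those most like Camk4 had 7569 to 14531.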

How the data were processed

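Poly(A)-selected RNA was made into libraries with a directional kit, per the labels' protocols. The authors deposited raw read counts per gene; STAR, featureCounts and DESeq2, with build GRCm39 (mm39), are named in the submitters' processing notes, without versions. The strand setting of the counting was not stated; exons of Shank1, Shank3 and Camk4 overlap 339, 271 and 72 bases of other genes in GENCODE M21 (GRCm38), whose exon lengths were used (9549 of 9636 genes matched by name).

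From the deposited counts, all 9636 genes were fitted in edgeR 4.0.16 (R 4.3.3) with TMM scaling, filterByExpr (which removed 0 genes), 8 groups of sex, injury and treatment, and cohort within sex, by robust quasi-likelihood tests with Benjamini-Hochberg adjustment over all genes and a threshold of 0.05. Values over both sexes are means of the 2 sexes. SEs are the fold change divided by the square root of F. Levels used log2 CPM with a prior count of 2 for residuals. On simulated data for SB against vehicle in injured mice, edgeR recovered 96 of 100 genes changed 1.25-fold and 99 of 100 changed 1.5-fold over 9636 genes, with 13 false calls. Recovery under variation shared between libraries, such as the first residual component (26.0% of the variance), was not tested. Recovery was also not tested for the 8 genes themselves. Alternatives were DESeq2 1.42.0, voom with quality weights (limma 3.58.1), 2 other scalings, no filter, a minimum mean of 10 CPM, no cohort term, a replicate block, each sex alone, complete cohorts, and each library left out; 2 libraries of robust z above 3.5 were also left out together.

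The members and lists were chosen with earlier results of these data known. All 8 members are named. Of each pathway list, every called gene was to be named and otherwise the 2 of smallest p in each direction; between cohorts too many were called, and those of smallest p are given. The 3 genes with the highest r stand for likeness. A few genes that these rules would name are not reported here. The 227 pairs of libraries of 1 group were compared by a chi-square test of their counts, whose ratio to its degrees of freedom was 9.84 or more, so no library was counted as a repeat of another.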

Additional observations from a re-analysis of the deposited data

Results flagged for a closer look

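In 3 of the 36 sets of 4 to 10 libraries examined, 1 library lay far from the others, and chance alone gives about 1 in 20. Nrgn had 2895 CPM in male sham + vehicle replicate 2 of cohort M3, while the other libraries of that group had 1226 to 1400.0 CPM. Nrgn also had 2067 CPM in female sham + vehicle replicate 7 of cohort F3, one of the 2 libraries that stood apart over all genes, while the other libraries of that group had 1111 to 1404 CPM. Shank1 had 622.8 CPM in male 5xCHI + SB replicate 6 of cohort M4, while the other libraries of that group had 786.3 to 903.6 CPM.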

How the results depend on the processing

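Over both sexes together, all 8 genes stayed higher with SB in injured mice under every alternative run, and none was called; leaving out single libraries moved Shank3 between 0.20 and 0.25 (adjusted p 0.412 to 0.912) and Camk4 between 0.15 and 0.22. The size of the differences was smaller in voom. The median of the 8 was 0.06 in voom for SB after injury, against 0.11 in edgeR. For SB in sham mice it was 0.05 against 0.18, with 6 of 8 higher in voom. For 5xCHI + SB against sham + vehicle it was 0.04 against 0.14, with 7 of 8 higher in voom. Voom called 1 gene of the table for SB after injury and 8 for the sex difference of injury. Between female cohorts 7 of the 8 genes were called in every alternative except upper quartile scaling and the replicate block, which called 6; with the block the table's count was 2602 and Camk2b had an adjusted p of 0.108. Between male cohorts the table's count was 613 in DESeq2, 3000 in voom, 1058 without the 2 libraries that stood apart and 90 with the replicate block, with 2, 6, 2 and 0 of the 8 genes called. Leaving out single libraries moved it between 28 and 769 with 0 to 2 of the 8 genes called; it moved most without female sham + vehicle replicate 7 (769), male 5xCHI + SB replicates 1 (106), 5 (242) and 6 (52), male 5xCHI + vehicle replicates 1 (116), 2 (191) and 3 (185) and male sham + vehicle replicates 1 (28) and 3 (222). Camk4 lost its male cohort call without male 5xCHI + SB replicate 1, 2, 5, 6 or 7, 5xCHI + vehicle replicate 1, 2, 3 or 7, sham + SB replicate 1 or 2, or sham + vehicle replicate 1, 3 or 5, and at 0.207 with the replicate block. Shank3 gained one without female 5xCHI + SB replicate 10 (0.0452), 5xCHI + vehicle replicate 10 (0.0496), sham + vehicle replicate 7 (0.0358) or male sham + vehicle replicate 4 (0.0129).

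Signs changed for several values, none of them called. For 5xCHI against sham in vehicle mice, voom gave Camk2a -0.019, Dlg4 -0.0071, Shank2 -0.052, Nrgn 0.036 and Camk4 -0.084, the fit without the 2 libraries gave Camk2a -0.0016, Dlg4 -0.0060 and Camk4 -0.040, the replicate block gave Camk2b 0.017, and the fit with no cohort term gave Shank3 0.0028. Over single libraries left out, Camk2b ran from -0.042 to 0.0090, Dlg4 from -0.032 to 0.058, Shank1 from -0.083 to 0.032, Shank2 from -0.012 to 0.090, Shank3 from -0.106 to 0.013, Nrgn from -0.207 to 0.015 and Camk4 from -0.037 to 0.097. For 5xCHI + SB against sham + vehicle, Nrgn was 0.093 in voom, 0.016 without the 2 libraries, 0.012 with the replicate block and -0.130 to 0.088 over single libraries. For SB in sham mice, voom gave Shank1 -0.0032 and the complete cohorts gave Nrgn 0.042. The log2 ratio of Camk2a to Camk2b with injury was -0.014 without the 2 libraries. The cause of these changes was not tested.

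The replicate numbers share only a label: same-numbered libraries had a median residual correlation of -0.01 over 62 pairs, against 0.02 for other numbers, and 4 of 57 libraries correlated best with their own number.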
